A study of Mus musculus with 3 samples.

Results

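Neutrophils recovered from injured mouse ear epidermis were described in single-cell RNA libraries that had been enriched for Langerhans cells (LCs), which present antigen in the epidermis. Members were chosen by their measured RNA: a cell was counted when S100a8, S100a9 and Retnlg together made up at least 1% of its unique molecular identifiers (UMIs, counted RNA molecules), its mitochondrial share was at most 10%, Cd74 was under 0.5%, Krt14 and Krt5 together were under 0.5%, and Cd3e, Cd3g and Cd3d together had fewer than 3 UMIs. The gate held 626 of the 25062 cells of the series, and levels of the genes in the rule are given as description only. There were 3 libraries, 1 per group and without replicates, all from ear epidermis of male Cd1 mice, an outbred stock; the number of animals behind each library is not given in the labels. The control mice (Ctrl) received only the depilatory cream Nair, while the other mice were treated either with croton oil, an irritant, mixed with acetone and olive oil (Oil) or with multiple punches of a microneedle array (Stamp). Tissue was taken 48 hours after the first treatment. Skin was digested with trypsin, dead cells were removed magnetically and LCs were then enriched magnetically, so the neutrophils are cells that came through an enrichment for another cell type. Their shares of a library are therefore not shares of the tissue.

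Neutrophils are short-lived granulocytes that leave the bone marrow under the control of G-CSF and CXCR2 and enter damaged tissue within hours. Their granule proteins are made in sequence during maturation, primary granules first, then secondary and gelatinase granules, whereas cytokines, chemokines and interferon-induced genes are transcribed after the cells have been activated. S100a8 and S100a9 encode the chains of calprotectin, an abundant cytosolic protein of neutrophils that binds metal ions, and Retnlg encodes a secreted resistin-like protein.

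No cell of the control library met the rule: 0 of 9876 cells. With 3 cells as the limit for a count of 0, this allows a share of up to 0.0304% (exact 95% upper limit 0.0373%). The highest share of S100a8, S100a9 and Retnlg in any control cell was 0.225%. In the Oil library 211 of 8241 cells were members (2.56%, exact 95% binomial interval 2.23% to 2.92%), and in the Stamp library 415 of 6945 (5.98%, 5.43% to 6.56%). Both treated libraries thus held neutrophils, and the Stamp share lay above the Oil share beyond counting error. With 1 library per group no test between treatments was possible, and the intervals given here reflect counting error alone. The 3 libraries held 127666928 (Ctrl), 119360952 (Oil) and 117178809 UMIs (Stamp). Cell barcodes shared between libraries numbered 32 for Ctrl and Oil, 17 for Ctrl and Stamp and 13 for Oil and Stamp, and none was shared between Oil and Stamp members.

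Members were shallow compared with their libraries. The median member had 3131 UMIs and 1258 genes in Oil and 3313 UMIs and 1184 genes in Stamp, against a median of 12509 and 16427 UMIs over all cells of those libraries. The 3 genes of the rule made up a median of 7.86% of a member's UMIs in Oil and 7.09% in Stamp. Near the threshold, 17 Oil and 30 Stamp members had between 1% and 2%, and 13 Oil and 12 Stamp cells that met every other condition had between 0.5% and 1%. Cells that failed on Cd74 alone numbered 36 in Oil and 43 in Stamp. A UMI of Csf3r, the G-CSF receptor, or of Cxcr2, the receptor for CXCL1 and CXCL2, neither of which the rule uses, was found in 93.4% of Oil and 90.8% of Stamp members.

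A small number of members also carried RNA of other cell types, and they weigh heavily in the Oil sums. Of the Oil members, 6 had at least 1% of their UMIs in the markers of another type and together held 24.2% of all Oil member UMIs, while 3 such Stamp members held 0.47%. The deepest Oil member had 84404 UMIs, the next 78181 and the next 37514, and all 3 were marked by genes of suprabasal keratinocytes. Scrublet, a doublet caller, marked no cell in either library with its automatic threshold, which therefore did not work. Removing the highest scores at a set rate instead took out 2 Oil and 5 Stamp members and left Krt79, a gene of the deepest cells, at a log2 difference of 6.44. Most list counts and many of the main genes below are therefore also given without the 9 other-type cells. This choice was made after the data had been seen. Without them, 205 Oil members with 758260 UMIs and 412 Stamp members with 1822187 UMIs remained. This changed the Stamp sums little. Members of up to 22969 UMIs remained in Stamp, among them 33 cells of a deep, unnamed group, subgroup 3, described below.

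**Figure D1:**
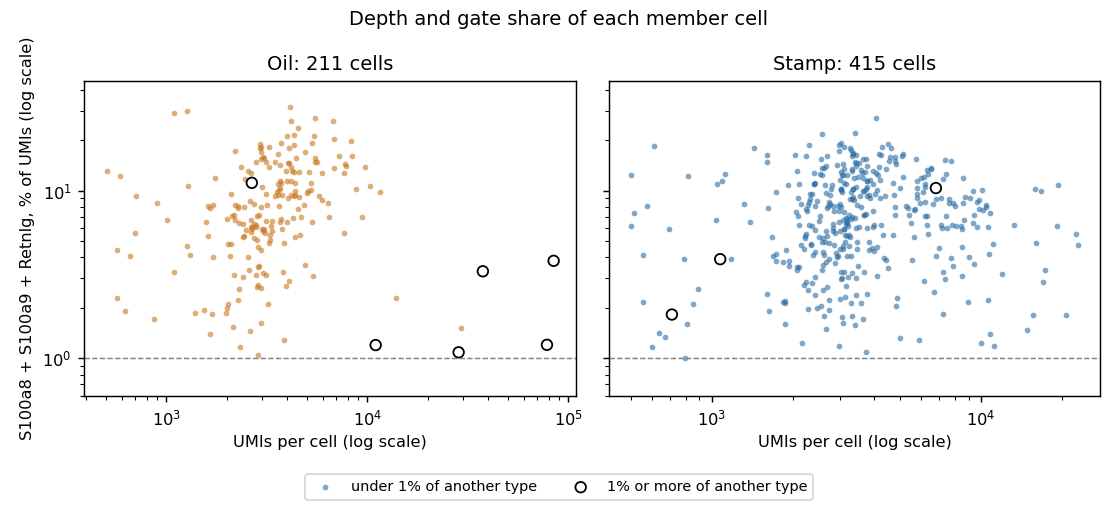
Each point is 1 neutrophil-gate cell, with its UMIs on the x axis and the percent of UMIs in S100a8, S100a9 and Retnlg on the y axis, both on log scales, for Oil (left) and Stamp (right). Open circles are the 6 Oil and 3 Stamp cells with at least 1% of another type's markers; 3 of the Oil ones, at 84404, 78181 and 37514 UMIs, are the deepest Oil members, the dashed line is the 1% threshold, and the x ranges of the panels differ.

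The neutrophil label was checked on markers that the rule does not use. The 11 such markers of the neutrophil list, among them Csf3r, Cxcr2, Hdc, G0s2, Mmp9 and Ly6g, were all detected in both libraries and summed to 7847 CPM (UMI counts scaled to 1000000 summed UMIs) in Oil members and 14677 in Stamp members, against 2644 and 4049 in Cd74-high cells (cells with Cd74 at 0.5% or more, mostly LCs by their markers), where Il1r2 alone made up 2596 and 3937 CPM. Sums of LC, keratinocyte and T cell markers are limited by the rule itself and are given only as description: LC markers made up 0.152% of Oil and 0.14% of Stamp member UMIs and T cell markers 0.0026% and 0.00421%. Monocyte or macrophage markers made up 0.12% and 0.0601%, and markers of red blood cells were at 0 in both libraries. Suprabasal keratinocyte markers reached 1.08% of Oil and 0.037% of Stamp member UMIs, and without the 9 cells 0.0334% and 0.0329%. LC markers other than Cd74 were used to estimate free RNA, the RNA of broken cells that enters every droplet. Their level in members was 4.41% of that in the whole Oil library and 3.64% in Stamp. The Cd74 limit of the rule may lower these values, and members that themselves carried 1% or more of LC markers raise them.

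The genes that were highest in members and at least 4-fold above Cd74-high cells in both libraries were led by S100a9, Fth1 and S100a8. S100a9 stood at 36964 CPM in Oil and 47242 in Stamp, and S100a8 at 27734 and 25474. Fth1, the heavy chain of the iron-storage protein ferritin, stood at 30551 and 33603 CPM, against 5803 CPM in the Cd74-high cells of the Oil library. The stefin-like protease inhibitor gene Stfa2l1 had 2428 CPM in Oil and 2443 in Stamp and 2.23 CPM in Oil Cd74-high cells. Wfdc17, Cstdc4, Srgn, Spp1 and Cebpb were also among these 25 genes, as was Fabp5, a fatty acid carrier abundant in keratinocytes, with 41.5% of its Oil UMIs in 1 cell. Fabp5 without the 9 cells had 290.1 CPM in Oil members, close to the 279 of Oil Cd74-high cells, so it met this criterion in Oil only through those cells.

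Neutrophil markers did not share 1 pattern between treatments. Hdc and Acod1 were higher in Stamp and Mmp9 and Cd177 in Oil, as given below, while the receptors Csf3r, Cxcr2 and Il1r2, with G0s2 and Mcl1, were close. Csf3r had 846 CPM in Oil and 884 in Stamp, a ratio of Oil to Stamp of 0.956 with an interval of 0.879 to 1.04. Cxcr2 had 655 CPM in Oil and 818 in Stamp, and G0s2, an inhibitor of fat breakdown that is abundant in neutrophils, 1062 and 1547. Il1r2, the decoy receptor for interleukin-1, had 1706 CPM in Oil and 2083 in Stamp, and Mcl1, a survival factor on which neutrophils depend, 1743 and 2134. These 5 genes lay within 2-fold in the main comparison and under each scaling tried. Among cytokine receptors, 0 of 15 compared genes were at least 2-fold higher in Oil and 1, Il1rap, was higher in Stamp (512 and 1082 CPM), against 18.2% and 14.2% of all compared genes, and without the 9 cells neither direction had any. Primary granule genes, which are expressed early in the bone marrow, were at or near 0: Mpo, the myeloperoxidase gene, had 1 UMI over all Oil members and 5 over all Stamp members, and the neutrophil elastase gene Elane had 0 in both.

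The treatments were then compared across all genes. For each gene the difference was log2 of Oil over Stamp CPM after adding 5 CPM to each, which understates differences of low genes; positive values mean higher in Oil. Of 3541 genes with at least 50 CPM in at least 1 library, genes of the rule and mitochondrial genes aside, 645 (18.2%) were at least 2-fold higher in Oil and 502 (14.2%) at least 2-fold higher in Stamp. Without the 9 cells, 3237 genes were compared and 319 (9.85%) were higher in Oil and 451 (13.9%) in Stamp. Of the 645 genes higher in Oil, 199 kept their call and direction without these cells, as did 371 of the 502 higher in Stamp. In 107 of the genes higher in Oil, a single cell held at least 50% of the Oil UMIs.

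The 12 genes with the highest positive difference illustrate this. Among them were Krt79, Lgals7, Gpr15lg, Cers4, Krt16, Scd1, Fa2h, Krt1, Elovl6, Krtdap and Apoc1, many of them genes of keratinocytes and of fat synthesis in the epidermis. Krt79 had 458 CPM in Oil and 0.546 in Stamp, and 99.8% of its Oil UMIs lay in 1 cell. Krt1 had 973 and 28.9 CPM, with 91.6% of the Oil UMIs in 1 cell. In that set of 12, all lay within 2-fold once the 9 cells were left out, with Krt79 at 0.19 and Krt1 at 0.25 on the log2 scale. They are not described further as neutrophil genes.

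Cytokine genes were higher in Stamp. Il1b, which encodes interleukin-1 beta, had 2046 CPM in Oil and 8387 in Stamp, 4.1-fold higher in Stamp (3.91 to 4.29), with a log2 difference of −2.03 and −1.66 without the 9 cells. Il1a, its relative released from damaged cells, had 5 CPM in Oil and 128 in Stamp. Il23a, the specific chain of interleukin-23, which supports T cells that make interleukin-17, had 8 and 96.7 CPM, and Csf1, the macrophage growth factor, 104 and 370. Csf3, which encodes G-CSF itself, was found in 2 Oil and 37 Stamp members, with 2 and 135 UMIs. Of the 12 compared genes of the cytokine and growth factor list, 1 was at least 2-fold higher in Oil and 7 in Stamp, with a list median of −1.14; the background was 18.2% and 14.2% of all compared genes. Hbegf, an epidermal growth factor receptor ligand, was the 1 gene higher in Oil, at 69 CPM against 12. Without the 9 cells 5 of the 12 stayed at least 2-fold higher in Stamp, and Il1rn, the natural interleukin-1 antagonist, was no longer among them (−1.18 and −0.82). Tnf lay within 2-fold, with 285 CPM in Oil and 427 in Stamp.

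Chemokine genes split. Cxcl2, the main neutrophil attractant of the list in these cells, had 10363 CPM in Oil and 23054 in Stamp, 2.22-fold higher (2.18 to 2.27); its log2 difference of −1.15 shrank to −0.78 without the 9 cells, inside 2-fold. Cxcl1, another ligand of CXCR2, had 43 CPM in Oil and 356 in Stamp, a log2 difference of −2.91 and −3.16 without the 9 cells, and was found in 15 Oil and 115 Stamp members. Ccl3, which attracts monocytes, was similar at 1339 and 1527 CPM, and Ccl4 stood at 890 and 1517. Ccl6 was higher in Oil, with 1108 CPM against 526 and a log2 difference of 1.07 (1.46 without the 9 cells). Of 11 compared chemokine genes 1 was at least 2-fold higher in Oil and 5 in Stamp, with a median of −0.77, against a background of 18.2% and 14.2%; without the 9 cells there were 1 and 4, with a median of −0.37. The most extreme of them, Ccl7, a monocyte attractant, had 123 CPM in Stamp, but 28.9% of those UMIs lay in 1 cell, and its log2 difference of −4.41 was −0.14 without subgroup 3, a group of cells described below. Under TMM scaling, which assumes that most genes do not differ, Ccl6 lay inside 2-fold (0.77). With the 9 cells left out as well it was at 1.37.

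Receptors that sense microbes and damage followed a similar order. Clec4e (Mincle) and Clec4d, C-type lectin receptors that signal through the Fc receptor gamma chain, had 442 and 912 CPM in Oil and 1799 and 2512 in Stamp. Trem1, which amplifies inflammatory signals, had 507 CPM in Oil and 1528 in Stamp, and Nlrp3, the sensor of the inflammasome that matures interleukin-1 beta, 394 and 1406. The log2 differences were −2.01 for Clec4e, −1.46 for Clec4d, −1.58 for Trem1 and −1.82 for Nlrp3, and all 4 genes stayed at least 2-fold higher in Stamp without the 9 cells (−1.68, −1.08, −1.20 and −1.48). Of 19 compared pattern recognition and Fc receptor genes, 9 were at least 2-fold higher in Stamp and 1, Fcgr2b, the inhibitory Fc receptor, was higher in Oil (108 and 45.9 CPM), against 14.2% and 18.2% of all compared genes. The counts without the 9 cells were 8 in Stamp and 2 in Oil. Under TMM scaling Fcgr2b lay inside 2-fold (0.87), and at 1.17 with the 9 cells left out as well. Adaptor genes of these receptors lay within 2-fold over all members: Fcer1g had 2235 CPM in Oil and 2059 in Stamp, and Tyrobp 2646 and 1490, though without the 9 cells Tyrobp was at least 2-fold higher in Oil (1.20).

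Enzymes that make small mediators came from 2 lists that held genes of both directions. In the eicosanoid and histamine list 2 of 6 compared genes were at least 2-fold higher in Oil and 2 in Stamp (median 0.39), and in the immunometabolic list 1 of 13 in Oil and 3 in Stamp (median −0.54), against 18.2% and 14.2% of all compared genes. Without the 9 cells these counts were unchanged, with medians of 0.61 and −0.24, against 9.85% and 13.9%. Acod1, which makes itaconate, had 449 CPM in Oil and 2309.9 in Stamp, 5.15-fold higher in Stamp (4.67 to 5.68), and Hdc, which makes histamine, 728 and 2539, 3.49-fold (3.23 to 3.78). Their log2 differences of −2.35 and −1.80 were −1.98 and −1.42 without the 9 cells. Ptgs2, the inducible cyclooxygenase of prostaglandin synthesis, had 27 UMIs in 15 Oil members and 959 UMIs in 212 Stamp members, which is 27 and 524 CPM. Its log2 difference was −4.05, and −3.71 without the 9 cells. Alox5ap, the partner of 5-lipoxygenase in leukotriene synthesis, was higher in Oil at 1944 CPM against 884 (1.13, and 0.83 under TMM scaling). Pla2g7, which breaks down platelet-activating factor, was at 1033 and 509.6 (1.01, and 0.71 under TMM scaling). With TMM factors and the 9 cells left out, Alox5ap was at 1.41 and Pla2g7 at 1.28. Alox5 lay within 2-fold at 107 and 74.8. The other immunometabolic genes higher in Stamp were Sod2, a mitochondrial superoxide dismutase, at 247 and 653 CPM, and Slc7a11, a cystine transporter, at 389 and 1168.

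Feedback genes of the NF-kB pathway were higher in Stamp as a list. NF-kB factors switch on inflammatory genes and, with them, their own inhibitors. Nfkbia, which encodes the inhibitor IkB alpha, had 1973 CPM in Oil and 4344 in Stamp. Tnfaip3 (A20) had 399 and 1296, Nfkbiz 419 and 1455, and Tnfaip2 172 and 1035. Of 17 compared genes 0 were at least 2-fold higher in Oil and 9 were in Stamp, against a background of 18.2% and 14.2%, and the median log2 difference was −1.11, with 8 genes and −0.88 without the 9 cells. All 17 genes had a difference below 0, and Nfkbia itself lay inside 2-fold without the 9 cells (−1.14 and −0.88). Of 19 compared AP-1 and immediate early genes, 2 were at least 2-fold higher in Stamp and 1, Jun, was higher in Oil (1544 and 730 CPM, 1.08, and 0.78 under TMM scaling). With TMM factors and the 9 cells left out, Jun was at 1.25. The list median was −0.72, and leaving out the 9 cells gave 4 genes higher in Stamp, 1 in Oil and a median of −0.55.

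Interferon-induced genes were higher in Stamp. Of 18 compared genes 13 were at least 2-fold higher in Stamp and 0 in Oil, with a median of −1.91, and without the 9 cells the counts were the same with a median of −1.53. The background was 14.2% of all compared genes higher in Stamp and 18.2% in Oil, and 13.9% and 9.85% without the 9 cells. Isg15, a ubiquitin-like modifier, had 346 CPM in Oil and 1289.6 in Stamp, 3.73-fold higher (3.33 to 4.19). Rsad2 (viperin), which blocks viral replication, had 27 UMIs in 9 Oil members and 640 UMIs in 102 Stamp members, and Ifit1, which binds foreign RNA, 2 UMIs in 1 Oil member and 250 in 75 Stamp members. Ifit3 had 0 UMIs in Oil and 158 in Stamp, at least 28.8-fold higher when Oil is set at 3 UMIs over the library's members. Oasl1 had 16 and 102 CPM, and Slfn4 289 and 1123. The membrane protein genes Ifitm1 and Ifitm2 of the list did not follow: Ifitm1 had 1698 CPM in Oil and 1782 in Stamp and Ifitm2 3329 and 3534.

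The promoters of genes that differed are shown because the letters recognised by interferon-activated and NF-kB factors can be read in them. The sequences are RefSeq windows of build GRCm38.p6, from 250 bases before to 50 bases after the gene start, 5′ to 3′ on the gene's strand. Capitals mark matches on either strand to GAAANNGAAA, the core letters of the interferon-stimulated response element, in Ifit1 (chr19:34640639-34640938, + strand), Rsad2 (chr12:26456403-26456702, − strand) and Isg15 (chr4:156200769-156201068, − strand), and to the NF-kB consensus in Cxcl2 (chr5:90903649-90903948, + strand).
Ifit1: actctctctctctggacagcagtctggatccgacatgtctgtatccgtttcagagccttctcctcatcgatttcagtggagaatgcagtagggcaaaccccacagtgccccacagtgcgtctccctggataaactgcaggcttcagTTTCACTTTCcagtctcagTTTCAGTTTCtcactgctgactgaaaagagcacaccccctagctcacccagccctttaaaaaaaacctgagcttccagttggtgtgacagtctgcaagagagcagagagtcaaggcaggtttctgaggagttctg
Rsad2: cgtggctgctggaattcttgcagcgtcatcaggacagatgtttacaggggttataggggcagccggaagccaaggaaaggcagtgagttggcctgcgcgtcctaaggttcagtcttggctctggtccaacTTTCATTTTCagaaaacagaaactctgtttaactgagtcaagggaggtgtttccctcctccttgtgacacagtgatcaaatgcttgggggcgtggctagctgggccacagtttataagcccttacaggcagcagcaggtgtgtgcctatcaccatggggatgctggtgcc
Isg15: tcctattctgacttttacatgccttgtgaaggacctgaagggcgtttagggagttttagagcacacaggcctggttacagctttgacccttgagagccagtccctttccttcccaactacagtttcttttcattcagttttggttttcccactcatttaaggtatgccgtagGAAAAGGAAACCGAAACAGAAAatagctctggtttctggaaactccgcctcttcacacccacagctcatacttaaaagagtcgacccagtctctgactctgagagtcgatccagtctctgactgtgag
Cxcl2: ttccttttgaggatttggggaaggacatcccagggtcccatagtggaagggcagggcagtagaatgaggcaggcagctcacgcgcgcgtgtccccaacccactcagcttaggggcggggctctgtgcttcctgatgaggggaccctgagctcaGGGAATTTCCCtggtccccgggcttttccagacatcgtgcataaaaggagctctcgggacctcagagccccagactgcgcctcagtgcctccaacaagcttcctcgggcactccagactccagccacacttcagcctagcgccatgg
Ifit1 held 2 matches, Rsad2 1 and Isg15 3 that overlap one another, and the 2 NF-kB matches in Cxcl2 overlap on opposite strands. Among all 32851 promoter windows 3.44% held GAAANNGAAA and 4.51% the NF-kB consensus. Of the 16 compared interferon genes with a window, 7 held GAAANNGAAA, and of the 14 compared NF-kB feedback genes with a window, 9 held the NF-kB consensus, against 4.59% and 7.73% of the 2769 compared genes with a window. A match is a description of letters; binding was not measured.

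Secondary granule genes were higher in Oil. Ngp, which encodes a cathelicidin-like granule protein, had 303 CPM in Oil and 44.8 in Stamp, a log2 difference of 2.63 and 3.01 without the 9 cells. Chil3, a chitinase-like protein, had 405 and 87.4 CPM (2.15), Mmp8, the neutrophil collagenase, 361 and 137 (1.37), Lcn2, which withholds iron from bacteria, 1787 and 831 (1.10), and Cd177, a surface protein of granule membranes, 75 and 27.9 (1.28). Of 8 compared genes 5 were at least 2-fold higher in Oil and 0 in Stamp, against 18.2% and 14.2% of all compared genes, with a median of 1.19. Without the 9 cells 6 genes and a median of 1.51 were found. TMM scaling puts the median of the genes of the main comparison at −0.27. Under it the list median was 0.91 and Lcn2 lay inside 2-fold (0.80), or at 1.27 with the 9 cells left out as well. The list genes Ltf and Camp, the other classical secondary granule genes, were too low to compare, with 3 and 8 UMIs in Oil and 33 and 11 in Stamp. They did not share the direction of the list: without the 9 cells Ltf was at −1.37 and Camp, at 0.24 with all members, at −1.14. Ngp was found in 37 Oil and 43 Stamp members, so its Oil level rests on a minority of cells.

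Retnlg, one of the genes of the rule, had 16405 CPM in Oil and 2982.9 in Stamp. A gate on S100a8 and S100a9 alone left out 3 Oil and 0 Stamp members and gave Retnlg 16608 and 2982.9 CPM. In the bone marrow maturation list, which shares genes with the secondary granule list, 5 of 11 compared genes were at least 2-fold higher in Oil and 1 in Stamp (5 and 0 without the 9 cells). The list of gelatinase granule and surface protease genes had 1 of 5 higher in Oil and 2 in Stamp, with a median of −0.057 and a background of 18.2% and 14.2%; leaving out the 9 cells kept these counts and put the median at 0.32. Mmp9, the gelatinase B of tertiary granules, had 789 CPM in Oil and 329 in Stamp (1.25, 1.65 without the 9 cells and 0.95 under TMM scaling). With TMM factors and the 9 cells left out, Mmp9 was at 1.56. In Stamp Slc11a1, a metal transporter, was higher (87 and 234 CPM), as was Thbs1, the thrombospondin gene (233 and 760 CPM). S100a6, a calcium-binding protein found in many cell types, had 10679 CPM in Oil and 2981 in Stamp (1.84 and 2.20); Cd74-high cells of the Oil library held 4031. Of the genes with the highest Oil levels relative to Stamp without the 9 cells, Slc24a3, an ion exchanger, had 129 and 9.83 CPM, AA467197, a small mitochondrial regulator, 672 and 89, and Ecm1, a secreted matrix protein, 150 and 22.4. AA467197 was found in 131 of 211 Oil and 113 of 415 Stamp members. Retnla and Dct, which led that order, rested on few cells, with 63.5% and 100% of their Oil UMIs in 1 cell.

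Glycolysis genes were on balance higher in Oil, with exceptions. Of 27 compared genes of the glycolysis and hypoxia list 8 were at least 2-fold higher in Oil and 1 in Stamp, with a median of 0.48 and a background of 18.2% and 14.2%. Gpi1 had 332 CPM in Oil and 105 in Stamp, Pgam1 453 and 150, Tpi1 336 and 127, Aldoa 498 and 199, and Ldha 483 and 214, all enzymes of the pathway from glucose to lactate. Egln3, an oxygen sensor, had 251 and 104 CPM. Slc2a3, a glucose transporter, was the gene higher in Stamp, at 89 and 324 CPM. Under TMM scaling the list median was 0.19, with Ldha at 0.86 and Egln3 at 0.94. The enzymes named here span 3.7 kb (Tpi1) to 29.0 kb (Gpi1) in the genome, below the 34.2 kb median of all compared genes. Over all members, compared genes of up to 12.99 kb had a median of 0.65, above that of this list. Without the cells that carry another type, the list stood at 0.60 and genes of up to 14.13 kb at 0.29. The part of gene span in this list was not tested.

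Counts in the remaining lists described here are read against the same background, 18.2% of compared genes higher in Oil and 14.2% in Stamp, and 9.85% and 13.9% where the 9 cells are left out. Of 14 adhesion and trafficking genes 0 were at least 2-fold higher in Oil and 1 in Stamp, and without the 9 cells 2 were higher in Oil and 0 in Stamp. Chemoattractant receptors numbered 0 of 10 higher in Oil and 1 in Stamp, which was Ccrl2, at 385 and 1092 CPM, and 1 in each direction without the 9 cells. In the survival and death list 3 of 11 were higher in Stamp and 0 in Oil (2 and 1 without the 9 cells), among them the death receptor gene Fas (74 and 414 CPM) and the kinase gene Pim1 (384 and 1269). In the heat shock and protein folding list 3 of 11 were higher in Oil and 1 in Stamp; the Oil genes, such as Hspe1 (67 and 11.5 CPM), lay inside 2-fold without the 9 cells, and Hspa5, a chaperone of the endoplasmic reticulum, was higher in Stamp (404 and 1178). The NADPH oxidase, which makes reactive oxygen, had 1 of 7 genes higher in each direction: Cyba (960 and 462 CPM) in Oil and Cybb (58 and 157) in Stamp. Both encode a chain of the same membrane heterodimer. With the 9 cells left out, 2 genes were higher in Oil and 0 in Stamp, and the list median of −0.15 was 0.18. A single cell held 41.8% of the Stamp UMIs of Cybb. Cyba lay inside 2-fold under TMM scaling (0.75), and at 1.33 with the 9 cells left out as well.

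**Figure D2:**
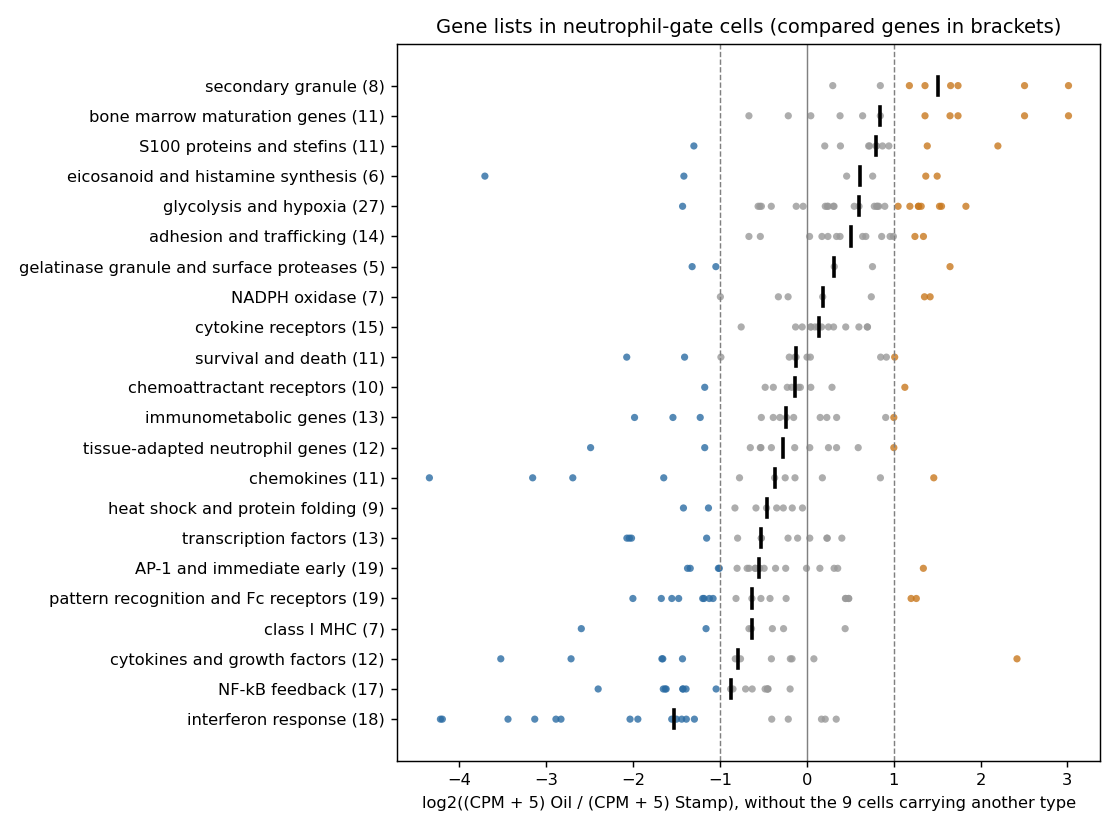
Each point is 1 compared gene of a list with 5 or more such genes, placed by its log2 Oil over Stamp difference without the 9 cells that carry another type; black bars are list medians, dashed lines mark 2-fold, genes past it are orange (Oil) or blue (Stamp), and the number of compared genes is in brackets. The interferon list has the lowest median, −1.53, and the secondary granule list the highest, 1.51.

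The share of members with a UMI was compared after each cell had been thinned to 1000 UMIs, which left out 10 Oil and 18 Stamp members below that depth. Il1b was found in 67.2% of Oil members (interval 60.2% to 73.6%) and 97.2% of Stamp members (95.1% to 98.6%), against 31.3% and 18.3% of Cd74-high cells. Cxcl2 was found in 85.1% and 99.2%, with 40.3% and 25.9% in Cd74-high cells. For both genes the difference in level thus did not rest on a few cells. Shares at a fixed depth follow in part from the level and are no separate support. Counts before thinning are given for a few genes. Il1b had a UMI in 167 of 211 Oil and 410 of 415 Stamp members before thinning, Acod1 in 88 and 368, and Ptgs2 in 15 and 212. After thinning, Acod1 was found in 24.4% of Oil and 74.1% of Stamp members, Ptgs2 in 2.99% and 31.0%, Clec4e in 33.8% and 70.5%, Isg15 in 19.9% and 44.6% and Rsad2 in 2.99% and 13.9%. The Oil share of Ptgs2 was close to that of Oil Cd74-high cells, 2.17%. Genes higher in Oil went the other way: Chil3 was found in 24.4% of Oil and 4.79% of Stamp members, Mmp9 in 52.7% and 24.4% and Lcn2 in 57.2% and 40.0%. Csf3r was found in 64.2% and 52.9%, and Cxcr2 in 56.7% and 54.2%, with 0.0735% and 0.118% in Oil Cd74-high cells. Before thinning, Cd74-high cells had a median of 12555 UMIs in Oil and 17444 in Stamp, and the members counted here 3247 and 3356.

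**Figure D3:**
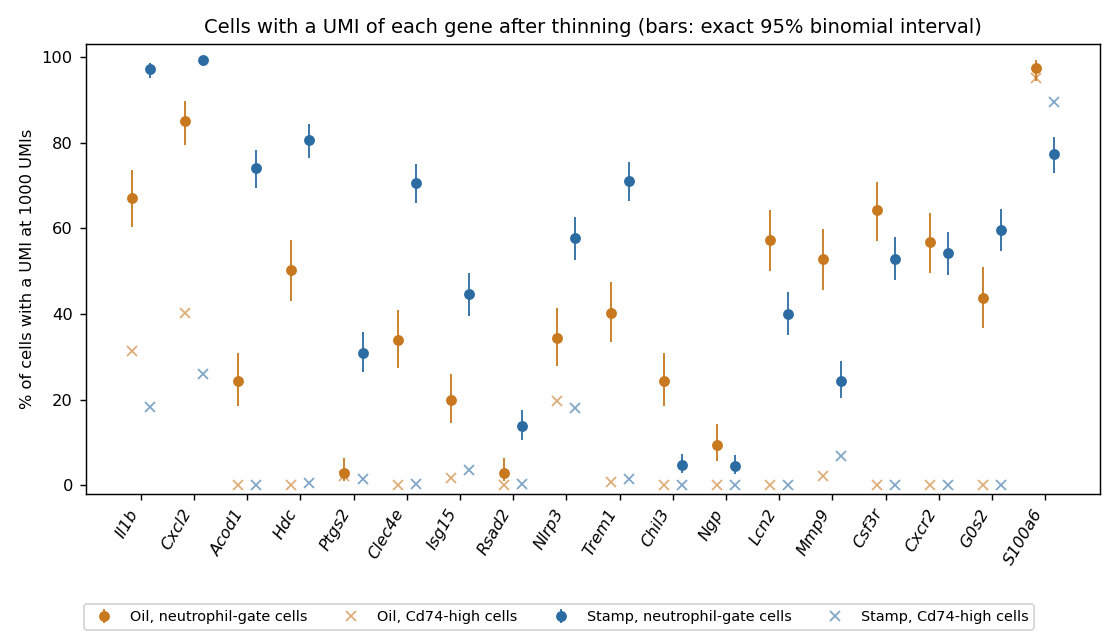
Percent of cells with at least 1 UMI of each gene after thinning to 1000 UMIs, for neutrophil-gate cells (circles, with exact 95% binomial intervals) and Cd74-high cells (crosses) of Oil and Stamp. The intervals of the members do not overlap for Il1b (67.2% and 97.2%), Acod1 (24.4% and 74.1%) and Chil3 (24.4% and 4.79%), and overlap for Cxcr2 (56.7% and 54.2%).

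Within Stamp, Il1b and Acod1 were found in cells with and without Retnlg. Of 238 Stamp members with Retnlg after thinning, 97.9% also had Il1b and 71.8% had Acod1, against 96.2% and 77.4% of the 159 without it. The prostaglandin gene Ptgs2 was found in 17 of 55 Stamp members with Rsad2 (30.9%) and in 31.0% of the others; at 2000 UMIs the shares were 35.5% and 42.3%. Ifit1 and Rsad2 were found together more often, with Ifit1 in 21.8% of members with Rsad2 and 4.68% of the others. In Oil the 49 members with Acod1 had Il1b in 87.8%, against 60.5% of those without Acod1, and at 2000 UMIs 80.3% against 74.8%.

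Joint clustering of the 626 members gave 5 subgroups, which followed the libraries closely. The genes that differ between libraries took part in the clustering, so subgroup sizes are given only to describe the members and are not compared between treatments; with 1 library per group, a subgroup may stand for a library. Subgroup 1, led by Slc24a3, AA467197 and Ecm1, held 152 Oil and 12 Stamp cells. Subgroup 2, led by R3hdm4, D830025C05Rik and Catip, held 49 Oil and 119 Stamp cells and had the highest median share of the 3 rule genes after subgroup 5 (10.3% and 10.8%). Subgroup 4, led by Csf3, Il1a and Il23a, held 2 Oil and 200 Stamp cells, and subgroup 5, led by Ifit3, Ifit2 and Ifit1, 0 Oil and 51 Stamp cells. In subgroup 5 Rsad2 was found in 40 of 51 cells at 1331 CPM, against 150 CPM over all other members, while Il1b was 8117 CPM there and 9059 in subgroup 4. Subgroup 3, with 8 Oil and 33 Stamp cells, was led by Krt79, Pf4 and Lgals7, found in 2, 15 and 13 of its 41 cells, had a median of 10838 UMIs and the lowest median share of the rule genes (3.16%), and held 5 of the 9 cells with another type's markers. Its monocyte or macrophage markers summed to 2001 CPM, against 256 to 780 in the other subgroups. No neutrophil marker was among its 8 leading genes, and its cells stay unnamed. The 5 other-type cells in it were all Oil cells. Its 33 Stamp cells, among them the deepest Stamp member at 22969 UMIs, thus stayed where the 9 cells were left out. Without subgroup 3, 394 of 3115 compared genes were at least 2-fold higher in Oil and 447 in Stamp.

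Subgroup 2 had the most even mix of the libraries, with 49 Oil and 119 Stamp cells, so the treatments were set side by side within it. Because genes that differ between the libraries took part in the clustering, levels within a subgroup depend on that split and are given only as description. Il1b had 3477 CPM in its Oil cells and 10204 in its Stamp cells, Ptgs2 40.7 and 466, Nfkbia 1620 and 4027, and Hdc 1599 and 3281. In the other direction Retnlg had 23434 and 5422 CPM, S100a6 14130 and 4480.0, Chil3 210.1 and 31.2, and Mmp8 759 and 185. In subgroup 2 Ifit1 had 0 UMIs in either library, and Acod1 stood at 1376 and 2305 CPM, inside 2-fold. Cxcl2 also lay inside 2-fold there (−0.85). In subgroup 1, with 152 Oil and 12 Stamp cells, Il1b (−0.93), Cxcl2 (−0.81), Hdc (−0.51), Clec4d (−0.75) and Nfkbia (−0.89) lay inside 2-fold. Ngp (−0.096), Rsad2 (0.35) and Ifit1 (0.78) did not keep the direction they had over all members. The 12 Stamp cells held only 13, 1 and 0 UMIs of them, and Rsad2 kept its direction in subgroup 2 (−2.28).

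**Figure D4:**
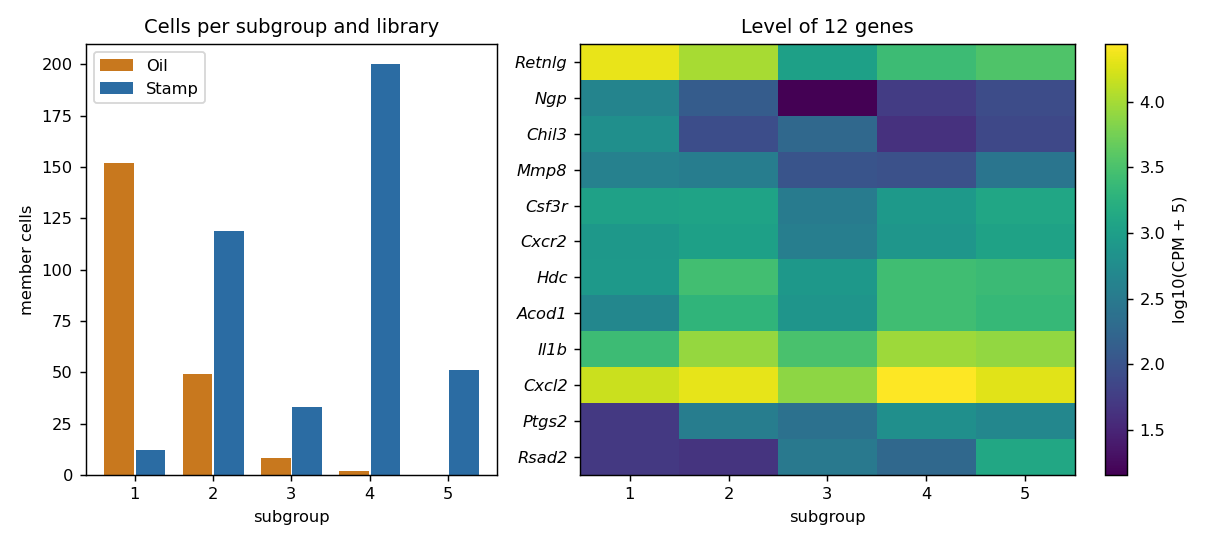
Left: number of neutrophil-gate cells in each of the 5 subgroups, by library; subgroup 1 holds 152 Oil and 12 Stamp cells and subgroup 4 holds 2 Oil and 200 Stamp cells. Right: level of 12 genes in each subgroup as log10(CPM + 5), with Rsad2 highest in subgroup 5 (1331 CPM) and Retnlg highest in subgroup 1.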

How the data were processed

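UMI counts per gene and cell were deposited by the authors for 3 droplet libraries (Chromium 3' kit v3.1, per the labels). The file headers name Cell Ranger 8.0.0 as the counting software. The build was GRCm39, per the submitters' processing notes. The values are whole numbers for 34289 features, not normalized; whether intronic reads were counted is not given in the sources used here. UMIs collapse PCR copies. A 3' assay reads transcripts near their 3' end, but differences between the libraries moved with gene span, as given at the end, and the reason was not tested. Depth is given with the results: 1000428 UMIs over Oil and 1830782 over Stamp members.

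Members were found with the stated gate, their counts were summed per library and expressed as CPM with an added 5 CPM before log2, and genes at 50 CPM or more in 1 library were compared; a 2-fold difference was called, with no test because each group is 1 library. Poisson, binomial and conditional ratio intervals (95%) are exact and cover counting error only. Cd74-high cells had Cd74 at 0.5% or more, fell under the rule's limits for the other genes, and were not Lyz2-high without Cd207. Besides list genes, markers and subgroup leaders, genes were named as the 25 most abundant ones at least 4-fold above Cd74-high cells and the 12 with the highest and lowest differences that stood at 3 times the free-RNA level or more; the same order without 9 cells that carry another type was added, and Musk, Pde1a and Esr1 were picked, after the values were seen. Subgroups came from 1000 variable genes, 15 components, 15 neighbours and Leiden resolution 0.5 (scanpy 1.11.5). TMM factors came from edgeR 4.0.16. The call and intervals were tried on simulated Poisson counts, the assumption of the intervals themselves. UMIs gathered in single cells were not simulated. The gate, the gene lists and the markers were chosen with earlier results of these data known. Of the list genes 1 has no feature under its symbol. Alternatives covered the gate, scaling, pseudocount, filter, thinning and resolution. Promoter windows were matched by symbol to RefSeq (GRCm38.p6). Values of some genes are not reported here.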

Additional observations from a re-analysis of the deposited data

How the results depend on the processing

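No paired analysis was possible because each group is 1 library, and for the same reason no replicate could be left out. Genes named in the text with a log2 difference of at least 1 did not reverse under the alternatives run, except Hspe1, Fabp5 and those of the 12 genes led by Krt79 that follow; Dct and Fa2h, each found in 1 Oil cell, went to 0 where a setting left that cell out. With the 3 rule genes at 5% or more, Krt16 was at −0.51, Krt1 at −0.058, Elovl6 at −0.99, Krtdap at −0.48 and Apoc1 at −0.16, and Hspe1, outside that set, went from 2.13 to −0.56. Without the 9 cells, Fabp5 went from 3.58 to −0.38 (−0.47 with TMM factors as well), Cers4 was at −0.15, Krt16 at −0.014, Scd1 at −0.39, Elovl6 at −0.82, Krtdap at −0.040 and Apoc1 at −0.073, and these last 6 genes were with TMM factors as well at −0.15, −0.097, −0.42, −0.84, −0.12 and −0.094. Without subgroup 3 these 6 were at −0.18, −0.036, −0.14, −0.63, −0.11 and −0.14. The 5% gate left 155 Oil and 276 Stamp members and 383 genes higher in Oil, and requiring Csf3r or Cxcr2 left 377 Stamp members. Genes higher in Oil numbered 409 with the mean of per-cell CPM, 394 without subgroup 3, 319 without the 9 cells, and 258 without them and with TMM factors. With TMM factors there were 443 genes higher in Oil and 829 in Stamp (34.8% of calls in Oil, against 56.2%), and median-of-ratios factors 421 and 883, with the median of the main genes at −0.27 and −0.31; without the 9 cells 41.4% of calls were in Oil, and with total counts that leave out rule, mitochondrial and ribosomal genes 63.9%. The filter gave 1338 genes higher in Oil at 20 CPM, 343 in Oil and 334 in Stamp at 100 CPM, and 2081 and 987 with no filter. The bone marrow maturation list median of 0.46 became 1.31 with the 5% gate and 1.25 without subgroup 3. In these settings Chil3 went from 2.15 to 4.14 and 3.67, and Ecm1 from 2.50 to 3.84 and 4.07. The proliferation list, of 2 compared genes, had a median of 1.45, 0.79 with 20 CPM added, −0.36 with the 5% gate, −0.30 with per-cell means, −0.55 at 100 CPM, −0.38 without the 9 cells, −0.36 without subgroup 3 and −0.46 without the 9 cells and with TMM; the cause was not tested. Leaving out the 9 cells, leaving out subgroup 3, the gate on S100a8 and S100a9 alone and the TMM repeat were chosen after the data had been seen. Shares of members with a UMI depend on depth: with 2000 UMIs per cell or without thinning, 62 of the values moved beyond their interval and 10 did not. Acod1 was found in 66 of 181 Oil and 324 of 369 Stamp members at 2000 UMIs, and the order of the libraries turned for Cxcr2 alone among the genes shown. The number of subgroups was 4 at resolution 0.3 and 7 at resolution 1. With 1 library per treatment, differences between treatments cannot be told apart from differences between animals, preparations or sequencing of the libraries.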

Other observations

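Several genes that are not part of textbook neutrophil lists were spread over many Stamp members and were near 0 in Cd74-high cells of Oil (0.138 CPM for Musk, 0.17 for Pde1a and 0.277 for Esr1). Musk, a receptor tyrosine kinase known from the neuromuscular junction, had 13 UMIs in 9 Oil members and 296 UMIs in 141 Stamp members (13 and 162 CPM). Pde1a, a phosphodiesterase regulated by calcium, had 18 UMIs in 11 Oil members and 376 in 140 Stamp members, and Esr1, the estrogen receptor alpha gene, 3 in 2 and 111 in 54. Without the 9 cells that carry another type the log2 differences were −3.10, −2.87 and −2.88. These 3 genes were picked after their values had been seen, and whether their UMIs lie in exons or introns was not tested.

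Gene length moved with the direction of the difference. Among 3533 compared genes with a span in GENCODE M39 (GRCm39), the median span was 34.2 kb; it was 12.3 kb for genes at least 2-fold higher in Oil and 41.2 kb for genes at least 2-fold higher in Stamp. Without the 9 cells the medians were 36.1, 17.8 and 45.8 kb. Over 4 equal groups by span, from the shortest to the longest, the median log2 difference went from 0.29 to −0.28 without these cells. Ribosomal protein genes made up 2.40% of Oil and 1.95% of Stamp member UMIs in that set. The part of span in the results above was not tested.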
